A study of Caenorhabditis elegans with 12 samples.

Results

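The comparison set wild-type (N2) Caenorhabditis elegans descendants, returned to 20 °C for 3 generations (F3), against their warm-grown ancestors (F0), and asked which parts of the 25 °C transcript profile were reset and which were not. Its members were the 3 F3 and 3 F0 libraries, 6 of 12 libraries in the series, chosen by their labels and not by any measured value. F3 animals descended from F0: at the L4 larval stage, part of the warm population was moved to 20 °C, and gravid adults of the third generation were collected 72 to 76 h after eggs were plated. F0 animals had been shifted to 25 °C as L4 larvae, after more than 20 generations at 20 °C, and were collected as gravid adults in the fifth warm generation, 54 to 56 h after plating. The 3 control libraries came from wild-type animals kept at 20 °C and handled alongside, and are used here as the level to which a reset gene would return. They are likewise labelled gravid adults, but their hours since plating and eggs per plate are not stated, so a difference in age between F3 and control cannot be told apart from a gene that was not reset. The F3, F0 and control groups were wild type with no transgene or drug. Each replicate pooled whole animals from 3 plates, with 1500 eggs plated per plate for F3 and F0, and RNA was sequenced as strand-specific total RNA depleted of ribosomal RNA. The replicates are labelled as biological. The p-values rest on a spread between replicates estimated jointly over all 12 libraries, so they do not measure the wider spread among F3 libraries by itself. Temperature, hours since plating and generation differ together between F3 and F0 and cannot be told apart in this comparison. The set-25 mutant libraries of the series entered only the filter on low counts, the scaling of libraries and the estimate of the spread between replicates.

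C. elegans lives comfortably between cool and warm room temperature, and the warm end of that range is a mild heat load. Animals adjust by raising chaperones under the heat shock factor HSF-1 and by changing how unsaturated their membrane lipids are, since desaturases such as FAT-7 keep membranes fluid in the cold. Hermaphrodites first make sperm and then oocytes, build a cuticle of collagens at each moult, and load oocytes with yolk made in the intestine. Silencing of transposons and of some genes can pass between generations in the germ line, through small RNAs bound by argonaute proteins and through methylation of histone H3 on lysine 9, a mark laid down by the enzymes MET-2 and SET-25.

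Total counts ran from 29002802 to 31151383 in F3 libraries, from 32520845 to 34192047 in F0 libraries and from 28217840 to 35483865 in control libraries. Levels are CPM, a gene's counts as a share of all counts on the usual common scale, adjusted to each library's effective size, and are comparable between libraries but not between genes of different length. F3 libraries resembled each other less than the others did. The chi-square per degree of freedom between pairs of libraries, which is about 1 for counting noise alone, was 17.9 to 39.2 in F3, 5.22 to 5.36 in F0 and 3.86 to 4.39 in control. Over the 9 wild-type libraries, 67.6% of the variance lay on the first principal component. It set F3, at -23.4 to -14, and control, at -22.5 to -12, apart from F0, at 33.7 to 36.3. The second component, with 7.66%, spread the F3 libraries between -14.7 and 16. F3 library 1 had less ribosomal protein RNA, with a summed 68413 CPM over the 80 genes of the list against 82520 and 87468 CPM in F3 libraries 2 and 3, and 80304 to 83218 CPM in F0. Here and below, summed levels are over all genes of a list, tested or not. Yolk and oocyte transcripts marked every library as one of egg-bearing adults: the yolk genes and their receptor summed to 55685 to 63212 CPM in F3, 43605 to 50719 CPM in F0 and 53153 to 56899 CPM in control.

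**Figure D1:**
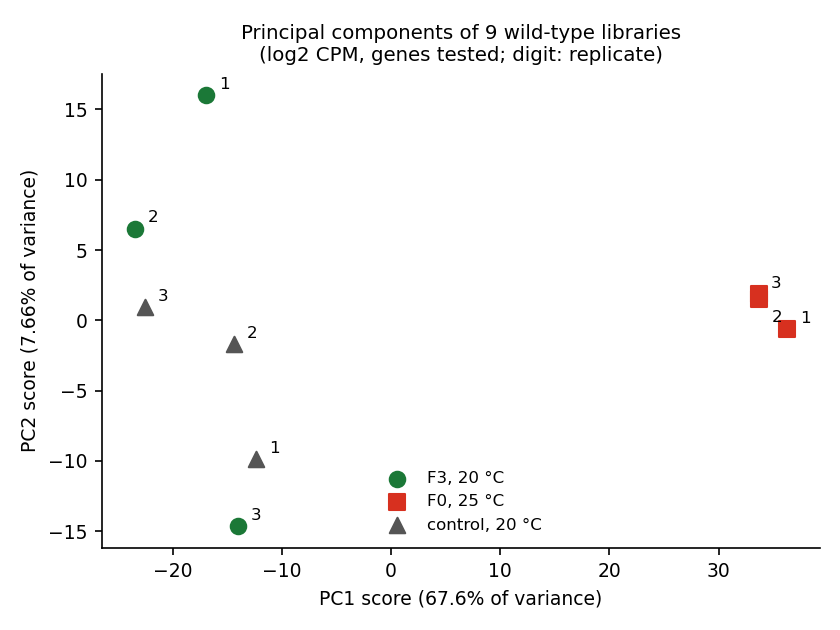
Scores of the 9 wild-type libraries on the first and second principal components of log2 CPM, with the share of variance on each axis; each point is a library, the digit its replicate, green circles F3, red squares F0 and grey triangles control. F3 and control libraries share the left side, at -23.4 to -12 on the first component, and F0 libraries lie at 33.7 to 36.3.

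Most of the warm profile was reset. Of 14466 genes tested, 4391 differed between F3 and F0 (30.4%): 1888 were higher in F3 than in F0 (13.1% of those tested) and 2503 lower (17.3%), called at an adjusted p under 0.05 by edgeR's quasi-likelihood test with Benjamini-Hochberg adjustment over all genes. The lower side was also the steeper: of 1090 genes that differed by at least 2-fold (7.53%), 935 were lower by at least 2-fold (6.46%) and 155 higher by at least 2-fold (1.07%). Values of F3 and F0 libraries did not overlap for 6015 genes, 41.6% of those tested, and those of F3 and control for 1333 genes, 9.21%. Against control, by contrast, 38 genes were called in F3 (0.263%; 20 higher, 0.138%, and 18 lower, 0.124%) and 4152 in F0 (28.7%; 2409 higher, 16.7%, and 1743 lower, 12%), and these comparisons share the control libraries and, with the F3 against F0 comparison, the F3 and F0 libraries. Among the 4391 genes that differed between F3 and F0, the median size of the difference was 0.45 on the log2 scale between F3 and F0 and 0.08 between F3 and control. These genes were picked for that difference, which leaves out genes that stayed at the F0 level, so these medians do not measure the reset. The median sizes over all genes tested were 0.17 between F3 and F0 and 0.07 between F3 and control. For 3117 of the 4391 genes, 71.0%, the 95% interval of the F3 level lay within 1.5-fold of control, against 9985 genes, 69%, of all tested. On the log2 scale this margin is wider than the median difference of 0.45, so a gene that stayed near its F0 level could also lie within it. These counts therefore do not measure the reset. Among the genes lower in F3 by at least 2-fold, 78 of 935 had such an interval, and the median half-width of their intervals was 1.1 on the log2 scale, so many of these low-count genes were measured too loosely to be placed. Genes on the X chromosome had a median log2 of -0.07 between F3 and F0, with 213 higher and 367 lower of 1961 tested, and medians on the autosomes ran from -0.02 to 0.01. At an unadjusted p under 0.05, 5863 genes differed between F3 and F0 and 731 between F3 and control.

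**Figure D2:**
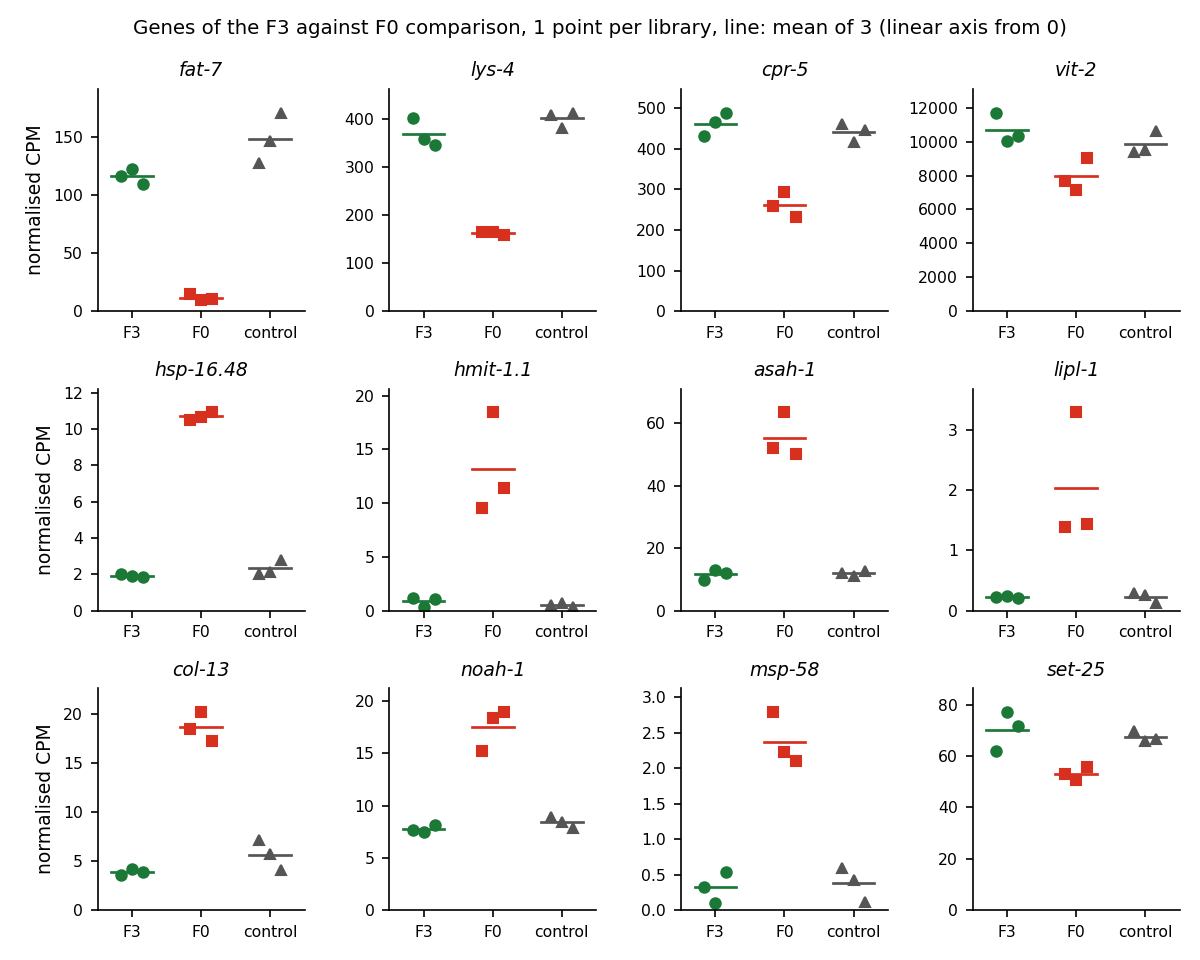
Levels of 12 genes by library in normalised CPM on linear axes that start at 0, with 1 point per library and a line at the mean of 3, in F3 (green), F0 (red) and control (grey). fat-7 and lys-4 are lower in all 3 F0 libraries than in any other library, hsp-16.48 and asah-1 are higher there, and F3 lies near control in each.

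Heat-induced chaperone transcripts fell in F3, and none of the chaperone lists held a call between F3 and control. Small heat shock proteins, which hold unfolding proteins in solution, were led by hsp-16.41. It had 0.131, 0.0640 and 0.0351 CPM in F3, against 1.75, 2.28 and 2.17 CPM in F0 and 0.0711, 0.0280 and 0.0311 CPM in control, with 1 to 4 counts per F3 library and 1 or 2 per control library. F3 and F0 libraries did not overlap, and the log2 difference between F3 and F0 was -4.66 (SE 0.35, adjusted p 4.14e-08). A larger supply of reads lay on hsp-16.48, at 1.99, 1.89 and 1.85 CPM in F3, against 10.5, 10.7 and 10.9 CPM in F0 and 2.04, 2.15 and 2.80 CPM in control, a log2 difference of -2.48 (SE 0.13, adjusted p 3.14e-10) by edgeR. Every F3 library lay below every control library for this gene, but the F3 to control difference of -0.29 (SE 0.14) was not called. Near-equal counts in every library join hsp-16.48 to hsp-16.49 and hsp-16.11 to hsp-16.1, so reads may be shared within each pair. Of 16 small heat shock genes, 14 passed the low-count filter, 9 were lower in F3 and 2 higher, with a median log2 of -0.51. Over all genes tested the median log2 was -0.01. The 2 higher genes were hsp-17 (0.45, SE 0.11) and the embryo chaperone gene sip-1 (0.18, SE 0.05).

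Larger chaperones moved less uniformly. Of 21 genes for HSP70, HSP90 and their helpers, all tested, 5 were lower and 4 higher in F3 and the median log2 was 0.04. The inducible HSP70 gene hsp-70 had 0.620, 0.752 and 0.667 CPM in F3, against 2.21, 2.39 and 2.27 CPM in F0 and 0.587, 0.771 and 0.638 CPM in control, a log2 difference of -1.73 (SE 0.24, adjusted p 3.45e-05) by edgeR. Its relatives F44E5.5 and F44E5.4, which have near-equal counts, had differences of -1.26 (SE 0.12) and -1.24 (SE 0.12). The BAG-domain co-chaperone gene unc-23 fell by 0.67 on the log2 scale (SE 0.08). Transcripts of hsf-1 itself, the transcription factor that drives this set, were slightly higher in F3 than in F0, by 0.16 (SE 0.04). The constitutive HSP70 gene hsp-1 was not called, at 0.09 (SE 0.06).

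Mitochondrial stress genes held more higher than lower calls in F3, and most endoplasmic reticulum stress genes were not called. The mitochondrial HSP70 gene hsp-6, a standard reporter of mitochondrial stress, had 642, 664 and 697 CPM in F3, against 471, 443 and 464 CPM in F0 and 638, 626 and 617 CPM in control. All F3 libraries exceeded all F0 libraries and the log2 difference was 0.54 (SE 0.05, adjusted p 1.35e-07) by edgeR. The stress transcription factor gene atfs-1 (0.37, SE 0.04) and mtx-1, for a mitochondrial import protein (0.39, SE 0.04), were also higher. Of 15 mitochondrial stress genes, all tested, 8 were higher and 1 lower, with a median log2 of 0.15. In the endoplasmic reticulum list 5 of 19 were higher and 1 lower (31.6% called, against 30.4% of all genes), with a median log2 of 0.05. The higher ones included the sensor kinase gene ire-1 (0.22, SE 0.04), the chaperone gene enpl-1, listed as T05E11.3 (0.22, SE 0.05), and calreticulin, crt-1 (0.17, SE 0.05). The call of crt-1 was lost without F0 replicate 3, and the count of 5 was 3 without F0 replicate 2 or 3.

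Fat metabolism genes changed in both directions, with fat-7 at the top. This stearoyl-CoA desaturase gene had the largest fold change among the well-counted genes with a gene-class name that were higher in F3. It had 116, 122 and 109 CPM in F3, against 14.4, 9.82 and 10.8 CPM in F0 and 128, 147 and 171 CPM in control. Every F3 library was above every F0 library and below every control library, with a log2 difference of 3.31 (SE 0.19, adjusted p 3.37e-06) between F3 and F0 by edgeR and of -0.36 (SE 0.15, adjusted p 0.977) between F3 and control. The sister desaturase gene fat-6 took the opposite direction, -0.37 (SE 0.10), as did the genes that make polyunsaturated fatty acids: fat-2 (-0.71, SE 0.06), fat-3 (-0.48, SE 0.04), fat-1 (-0.35, SE 0.04) and fat-4 (-0.10, SE 0.04). Of 19 desaturase, elongase and fatty acid synthesis genes, 18 were tested, of which 8 were lower and 2 higher in F3. The 2 were fat-7 and the elongase gene elo-2 (0.21, SE 0.05). The count of 8 was 5 without F0 replicate 1 or 3.

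Genes for burning and releasing fat split. acs-2, an acyl-CoA synthetase that feeds fatty acids to mitochondrial oxidation, had 75.5, 82.0 and 76.4 CPM in F3, against 18, 39.2 and 20.4 CPM in F0 and 63.4, 70.5 and 78.7 CPM in control. F3 stood above F0 by 1.59 (SE 0.26, adjusted p 0.00211) on the log2 scale by edgeR, with F0 library 2 well above the other F0 libraries. The lysosomal lipase genes lipl-1, lipl-2 and lipl-3 were lower in F3, at -3.10 (SE 0.40), -3.27 (SE 0.44) and -1.05 (SE 0.25). lipl-1 had 0.220, 0.240 and 0.202 CPM in F3, against 1.38, 3.29 and 1.43 CPM in F0 and 0.293, 0.266 and 0.132 CPM in control. In this gene, too, F0 library 2 was the highest, and F3 and control overlapped. lipl-5 was lower by a smaller amount, -0.69 (SE 0.11), and the acyl-CoA synthetase genes acs-18 and acs-3 stood at -3.90 (SE 0.46) and -1.01 (SE 0.10). Of 48 lipase and acyl-CoA synthetase genes, 39 were tested, 14 were lower and 6 higher, with a median log2 of -0.14.

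Sphingolipid breakdown and osmotic genes gave some of the steepest falls. The acid sphingomyelinase gene asm-3 had 0.0490, 0.144 and 0.0351 CPM in F3, against 2.91, 8.74 and 2.94 CPM in F0 and 0.160, 0.0841 and 0.156 CPM in control, from 1 to 4.5 counts per F3 library and 99 to 293 per F0 library, and a log2 difference of -5.89 (SE 0.64, adjusted p 3.66e-05) by edgeR. F0 library 2 held more than the other F0 libraries together, and F3 and F0 did not overlap. asah-1, for an acid ceramidase that works on the product of that enzyme, had 9.84, 13 and 11.9 CPM in F3, against 52.2, 63.4 and 50.1 CPM in F0 and 12, 11.2 and 12.8 CPM in control, a difference of -2.25 (SE 0.12, adjusted p 2.06e-08). A related sphingomyelinase gene, asm-2, fell by 1.33 on the log2 scale (SE 0.12). Over the 25 sphingolipid genes, all tested, 5 were lower and 4 higher (7 without F3 replicate 1) and the median log2 was 0.05. The share called was 36%, against 30.4% of all genes.

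hmit-1.1, a proton-coupled inositol transporter gene known for its response to salt, had 1.19, 0.352 and 1.05 CPM in F3, against 9.59, 18.4 and 11.4 CPM in F0 and 0.551, 0.743 and 0.374 CPM in control. Its log2 difference between F3 and F0 was -3.94 (SE 0.35, adjusted p 1.13e-05) by edgeR, and F3 overlapped control. gpdh-1, which makes the glycerol that worms store under osmotic stress, had 4.93, 5.10 and 7.75 CPM in F3, against 20.1, 31 and 19.3 CPM in F0 and 6.51, 9.61 and 6.35 CPM in control, a difference of -1.99 (SE 0.25, adjusted p 3.06e-04). The water channel gene aqp-2 was lower by less, -0.48 (SE 0.08), and osr-1, a regulator of osmotic resistance, was higher, 1.53 (SE 0.42). Of 20 osmolyte genes, all tested, 7 were lower and 2 higher.

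Sperm transcripts were scarce in all groups, and the sums of both sperm lists were lower in every F3 library than in any F0 library. Major sperm proteins are the cytoskeleton of the crawling nematode sperm and signal to oocytes. Their genes summed to 21.6, 7.73 and 44.1 CPM in F3, against 262, 188 and 193 CPM in F0 and 44.6, 31.96 and 7.26 CPM in control. F3 overlapped control and lay far below F0, and the F3 libraries themselves differed several-fold. Of 35 such genes, 31 passed the low-count filter, and these 31 were lower in F3, with a median log2 of -3.19. Many sperm genes pass that filter through their F0 level alone, so this count and median describe the genes and support nothing. An example is msp-58, at 0.330, 0.108 and 0.542 CPM in F3, against 2.79, 2.23 and 2.09 CPM in F0 and 0.598, 0.425 and 0.110 CPM in control, a log2 difference of -2.91 (SE 0.44, adjusted p 1.81e-04) by edgeR. These genes are near copies of each other, so values of single genes are uncertain. A separate list of 60 other sperm genes had 41 tested, with 35 lower and 1 higher and a median log2 of -3.01, a count and median under the same limit. Their sums were 141.8, 130.8 and 149.97 CPM in F3, against 228 to 264 CPM in F0 and 131 to 153 CPM in control. The lower ones included spe-6, for a kinase of sperm formation (-1.04, SE 0.12), spe-11, a sperm factor needed by the embryo (-3.88, SE 0.47), the sperm-specific genes ssp-31 (-4.22, SE 0.50), ssp-9 (-3.72, SE 0.50) and sss-1 (-3.77, SE 0.64), and the nematode-specific peptide genes nspd-10 (-3.72, SE 0.50) and nspd-4 (-3.72, SE 0.45). In whole animals, fewer cells of a type and less RNA per cell cannot be told apart. Of 6 male markers, 2 were tested and none was called, and they summed to 4.56 to 5.79 CPM in F3 and 5.28 to 6.55 CPM in F0.

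The egg programme changed in the other direction, by small amounts. Of 35 oocyte and eggshell genes, all tested, 17 were higher in F3 (26 without F3 replicate 1) and none lower, with a median log2 of 0.12. gna-2, which supplies the sugar for eggshell chitin, had 155, 144 and 139 CPM in F3, against 115, 118.7 and 117 CPM in F0 and 158, 154 and 153 CPM in control, a log2 difference of 0.32 (SE 0.04, adjusted p 7.84e-06) by edgeR. egg-3 (0.26, SE 0.03), an organiser of the oocyte-to-embryo switch, and lin-41 (0.32, SE 0.05), a regulator of oocyte growth, followed. Yolk protein genes were higher too, in 6 of 7 tested with their receptor: vit-2 had 11702, 10025 and 10337 CPM in F3, against 7701, 7133 and 9044 CPM in F0 and 9409.8, 9488 and 10628 CPM in control, a difference of 0.43 (SE 0.09, adjusted p 0.00144), and vit-4 and vit-3 had 0.41 (SE 0.07) and 0.39 (SE 0.07). The exception, vit-1, was not called, at -0.07 (SE 0.07). The oocyte marker genes, given here beside the yolk values, were higher in 6 of 10 and summed to 7861, 9020 and 8882 CPM in F3 and 7932 to 8253 CPM in F0, and their part in the yolk difference was not tested.

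The early zygotic genes that were called were lower in F3, and most were not called. Of 36 such genes 28 were tested, 10 were lower and none higher (35.7% called, against 30.4% of all genes), with a median log2 of -0.49. sdz-6, a gene switched on in the embryo downstream of the fate factor SKN-1, had 0.0490, 0.0640 and 0.211 CPM in F3, against 1.84, 1.98 and 1.8 CPM in F0 and 0.107, 0.112 and 0.156 CPM in control, a log2 difference of -4.02 (SE 0.34, adjusted p 1.38e-07) by edgeR. All F0 libraries lay far above the others. F3 libraries held 1.5 to 6 counts and F0 libraries 62.5 to 66.25, so sdz-6 can pass the low-count filter through its F0 level. The count and median of this list therefore describe the genes tested and support nothing. sdz-24 (-2.27, SE 0.32) and sdz-28 (-0.95, SE 0.17) fell with sdz-6. vet-2, a very early transcript, had a shallower change of -0.38 (SE 0.07). The early fate genes hnd-1 (-1.25, SE 0.22) and tbx-11 (-0.90, SE 0.20) were lower as well, among 7 lower and none higher of 19 tested of 24 (36.8% called). That count was 3 or 4 without F3 replicate 1, 2 or 3 or F0 replicate 2 or 3. Of 10 general embryo markers, 7 were tested and none was called, and they summed to 7.73 to 8.56 CPM in F3 and 8.51 to 9.61 CPM in F0.

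**Figure D3:**
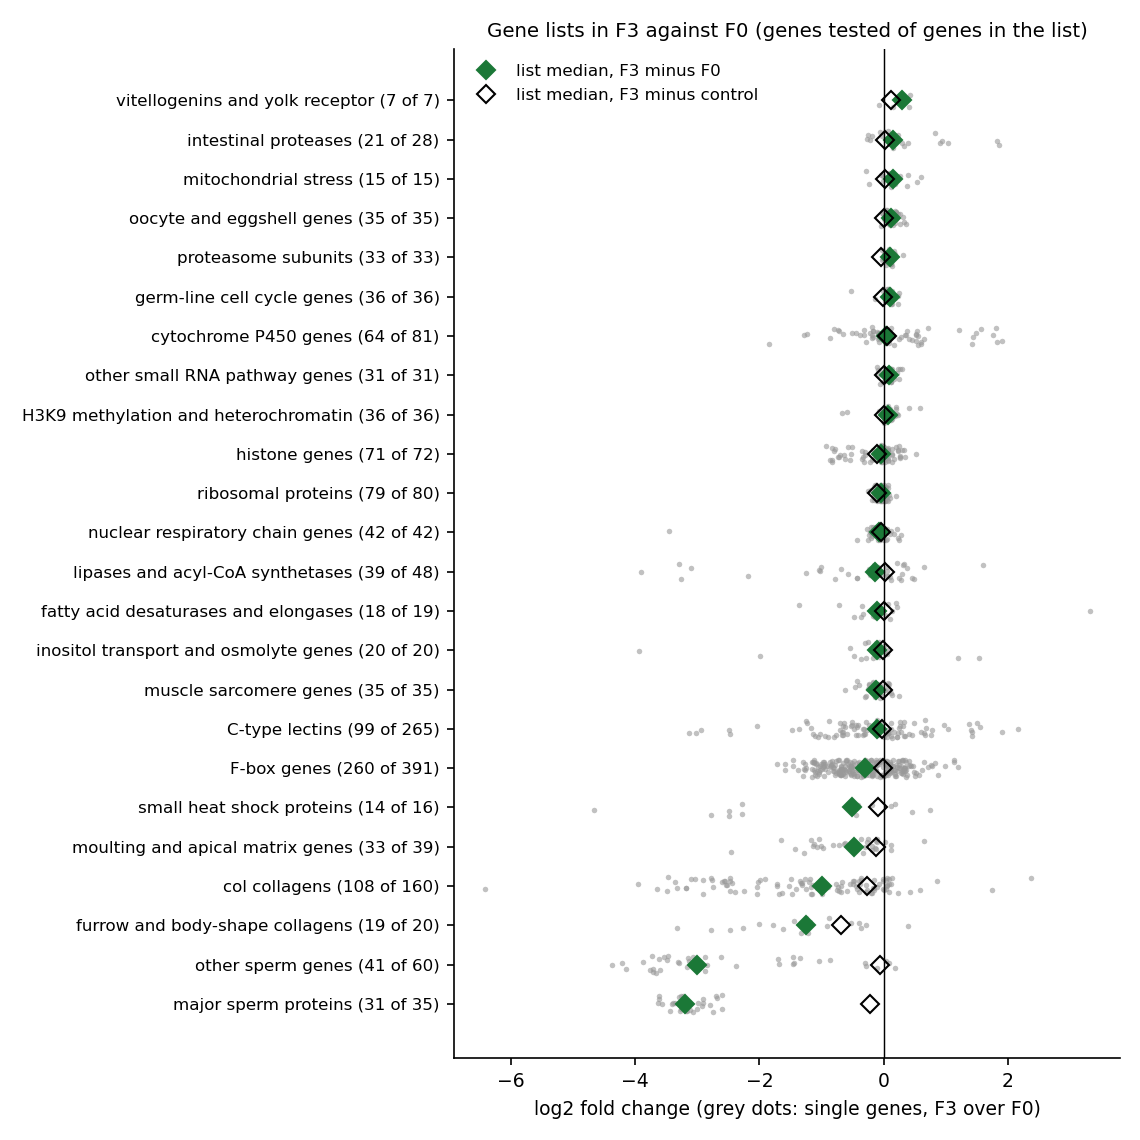
Log2 fold changes of F3 over F0 for the tested members of 24 gene lists (grey dots), with the list median for F3 minus F0 (green diamonds) and for F3 minus control (open diamonds); labels give genes tested of genes in each list. Sperm lists lie near -3 between F3 and F0 and near 0 between F3 and control, and furrow collagens lie below 0 in both.

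Most cuticle collagen genes tested were lower in F3 than in F0, and none was called against control. Cuticle collagens form the worm's exoskeleton and are remade at each moult. Of 160 col genes, 108 were tested, 68 were lower in F3 and 3 higher. Their median log2 was -1.0 between F3 and F0, -0.27 between F3 and control and 0.50 between F0 and control. A gene such as col-137, at 0 to 0.0163 CPM in F3, 0.335 to 0.435 CPM in F0 and 0 to 0.148 CPM in control, can pass the low-count filter through its F0 level. The counts and medians of this list, and of the furrow and moulting lists, therefore describe only the genes tested. col-13 had 3.59, 4.17 and 3.92 CPM in F3, against 18.4, 20.2 and 17.2 CPM in F0 and 7.18, 5.70 and 4.07 CPM in control, a log2 difference of -2.25 (SE 0.15, adjusted p 2.67e-08) by edgeR. F3 lay far below F0 and overlapped the lowest control library, and the F3 to control difference of -0.53 (SE 0.17) was not called. col-147 (-2.48, SE 0.19) and col-180 (-2.76, SE 0.26) fell by similar amounts. Of 20 furrow and body-shape collagen genes, 19 were tested, 11 were lower (7 without F0 replicate 3) and 1 higher, with medians of -1.26 between F3 and F0 and -0.69 between F3 and control. sqt-3 had 6.93, 6.78 and 6.16 CPM in F3, against 12.4, 11.4 and 13.5 CPM in F0 and 10, 7.15 and 7.36 CPM in control, a difference of -0.91 (SE 0.13, adjusted p 4.70e-05), and dpy-7 and dpy-2, whose loss makes worms short and stout, stood at -1.78 (SE 0.41) and -1.26 (SE 0.24). Control library 1 stood apart: the furrow and body-shape genes summed to 32.5, 36 and 30.5 CPM in F3, against 58 to 68 CPM in F0 and 61.8, 43.3 and 31.1 CPM in control. Without control replicate 1 the median between F3 and control was -0.20 for these genes and -0.15 for the col genes.

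The col genes summed to 24087, 27587 and 30114 CPM in F3, 30490 to 32898 CPM in F0 and 29634 to 29830 CPM in control. col-119 had 2627, 3024 and 3171 CPM in F3, against 2888, 2871 and 2856 CPM in F0 and 3148, 3274 and 3326 CPM in control, and its difference between F3 and F0, 0.03 (SE 0.07), was not called. Moulting and apical matrix genes fell as well: of 39, 33 were tested, 18 were lower and none higher, with a median log2 of -0.48. noah-1 and noah-2 encode matrix proteins of the cuticle surface. noah-1 had 7.69, 7.44 and 8.14 CPM in F3, against 15.2, 18.4 and 19 CPM in F0 and 8.92, 8.41 and 7.91 CPM in control, a log2 difference of -1.18 (SE 0.12, adjusted p 1.90e-06) by edgeR, and noah-2 stood at -1.28 (SE 0.13). The hedgehog-related genes grd-10 (-1.95, SE 0.15), wrt-10 (-2.46, SE 0.35) and grd-13 (-1.09, SE 0.10) fell with them, within a family of 89 of which 46 were tested, 11 lower and 9 higher. Of 9 epidermis markers 8 were tested and 3 were lower, and they summed to 1020, 1216 and 1229 CPM in F3, 1504 to 1637 CPM in F0 and 1237 to 1272 CPM in control. These markers include the collagen genes dpy-7 and col-19 and the hedgehog-related gene grd-10, so their sum is not separate from the differences above. The part of epidermal content in the collagen differences was not tested.

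Digestive protease genes of the intestine were mainly higher in F3. cpr-5, a cathepsin B-like protease gene, had 431, 466 and 489 CPM in F3, against 259, 293 and 232 CPM in F0 and 461, 417 and 447 CPM in control, a log2 difference of 0.82 (SE 0.08, adjusted p 3.47e-06) by edgeR, with all F3 libraries above all F0 libraries. The aspartic protease genes F59D6.3 (asp-8) and F21F8.4 (asp-12) had steeper rises, 1.82 (SE 0.15) and 1.86 (SE 0.23), and cpr-3, cpr-4 and W07B8.1 (cpr-8) stood at 1.04 (SE 0.14), 0.91 (SE 0.09) and 0.93 (SE 0.12). Of 28 intestinal protease genes, 21 were tested, 11 were higher and 3 lower, with a median log2 of 0.14. The di- and tripeptide transporter gene pept-1 was higher as well, 0.55 (SE 0.05). General intestine markers were mixed: of 11, all tested, 2 were higher and 3 lower, and they summed to 2503 to 2790 CPM in F3 and 2232 to 2499 CPM in F0.

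Cytochrome P450 enzymes oxidise fatty acids and foreign compounds. Large differences were those of cyp-29A4, at 5.84, 5.84 and 4.47 CPM in F3, against 1.28, 1.31 and 1.72 CPM in F0 and 3.79, 4.70 and 5.0 CPM in control, with a log2 difference of 1.90 (SE 0.17, adjusted p 2.27e-07) by edgeR, and of cyp-13A5 (1.81, SE 0.27) and cyp-13A4 (1.75, SE 0.24). cyp-33C8 followed at 1.21 (SE 0.11), and cyp-14A2 was lower, -1.28 (SE 0.17). Of 81 genes, 64 were tested, 15 were higher and 5 lower (3 without F3 replicate 2 or 3, 2 without F0 replicate 3). The share called, 31.25%, was near the 30.4% of all genes. Conjugating enzymes gave 25 lower and 11 higher of 100 tested of 116 (36% called). The glutathione transferase gene gst-10 was lower (-1.21, SE 0.10), and gst-7 (0.44, SE 0.04) and the glucuronosyltransferase gene ugt-2 (0.96, SE 0.10) were higher.

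Defence genes were divided gene by gene. Lysozymes break bacterial walls: lys-4 had 403, 360.1 and 347 CPM in F3, against 164.1, 165 and 158 CPM in F0 and 410.1, 382 and 414 CPM in control, a log2 difference of 1.19 (SE 0.05, adjusted p 4.26e-11) by edgeR, while lys-1 (-0.68, SE 0.05), lys-8 (-0.60, SE 0.05) and the invertebrate-type lysozyme gene ilys-2 (-4.15, SE 0.48) were lower. Of 122 lysozyme and antimicrobial peptide genes, 73 were tested, 26 were lower and 16 higher (10 without F3 replicate 1). The infection-response gene irg-5, listed as F35E12.5, had 0.490, 1.17 and 1.0 CPM in F3, against 9.97, 25.6 and 18.7 CPM in F0 and 1.03, 1.15 and 1.03 CPM in control, a difference of -4.36 (SE 0.41, adjusted p 5.44e-05). F3 overlapped control and F0 was many times higher in each library. C-type lectins, sugar-binding proteins used in defence, gave 33 lower and 18 higher of 99 tested of 265. The higher ones included clec-70 (1.90, SE 0.16), clec-190 (1.56, SE 0.16), clec-223 (1.42, SE 0.23), clec-210 (1.41, SE 0.35), clec-150 (0.79, SE 0.05) and clec-97. clec-97 had 27.7, 23.4 and 24 CPM in F3, against 9.3, 8.93 and 9.86 CPM in F0 and 25.17, 24.7 and 22.8 CPM in control, a difference of 1.42 (SE 0.09, adjusted p 3.19e-09). clec-218 was lower, -1.17 (SE 0.07).

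F-box and MATH-domain genes, large families that choose proteins for ubiquitin-dependent destruction, held more lower than higher calls in F3, and most F-box genes were not called. Of 391 F-box genes, 260 were tested, 61 were lower and 14 higher, with a median log2 of -0.30, and the 28.8% called compares with 30.4% of all genes. The count of 61 was 36 without F3 replicate 2, 32 without F0 replicate 2 and 36 by DESeq2, and that of 14 was 9 without F0 replicate 3. fbxb-97 fell (-1.13, SE 0.14), and fbxa-153 (0.77, SE 0.10) and fbxc-32 (0.52, SE 0.07) were higher. Of 93 MATH and BTB domain genes, 62 were tested, 25 were lower and 11 higher. math-38 (-3.24, SE 0.47) and math-24 (-1.29, SE 0.17) fell, and bath-45 was higher, 1.60 (SE 0.26). Nuclear hormone receptor genes barely leaned, with 16 higher and 10 lower of 186 tested of 284 (6 lower without F0 replicate 2). Among these, nhr-115 (1.17, SE 0.21) and nhr-138 (0.36, SE 0.07) were higher and nhr-35 (-0.87, SE 0.10) lower.

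Germ line silencing genes differed by small amounts, and none of these lists held a call between F3 and control. set-25 had 62.0, 77.2 and 71.6 CPM in F3, against 53.1, 50.9 and 55.6 CPM in F0 and 69.7, 65.9 and 66.8 CPM in control, a log2 difference of 0.40 (SE 0.07, adjusted p 5.33e-04) by edgeR between F3 and F0 and of 0.06 (SE 0.07, adjusted p 1) between F3 and control. met-2 was higher by 0.20 (SE 0.04). The nuclear argonaute gene wago-9 (hrde-1), a carrier of inherited silencing, had 850.0, 1006 and 960.1 CPM in F3, against 922, 889.7 and 920.5 CPM in F0 and 959, 956 and 938 CPM in control, and its difference of 0.04 (SE 0.06, adjusted p 0.602) was not called in the fit over all libraries. It was called without F3 replicate 1. Over 36 heterochromatin genes, all tested, 9 were higher and 2 lower (30.6% called, against 30.4% of all genes), with a median log2 of 0.08. The steepest were set-19, for a SET-domain protein (0.58, SE 0.07), and cec-4, which anchors methylated chromatin at the nuclear edge. cec-4 had 37.4, 37.8 and 35.9 CPM in F3, against 54, 58.8 and 54.9 CPM in F0 and 36.6, 38.3 and 38.2 CPM in control, a log2 difference of -0.59 (SE 0.06, adjusted p 8.63e-07) by edgeR.

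Of 22 argonaute genes, all tested, 7 were higher (11 without F3 replicate 1) and 5 lower (3 without F0 replicate 1 or 3), with a median log2 of 0.11. The piRNA-pathway gene prg-2 (0.39, SE 0.05) and ppw-1 (0.23, SE 0.03) were higher. T22B3.2 (alg-3), which acts in sperm formation, was lower, at -2.01 (SE 0.31), with 0.653, 0.320 and 1.0 CPM in F3 against 3.06, 1.83 and 2.92 CPM in F0. Other small RNA genes were higher in 11 of 31 tested and lower in none (35.5% called, against 30.4% of all genes), with a median log2 of 0.08. Among the higher were mut-7 (0.24, SE 0.04), ZC477.5 (rde-8; 0.24, SE 0.05) and B0564.11 (rde-11; 0.29, SE 0.06). The P granule gene ZK1067.2 (znfx-1), which keeps inherited silencing in balance, was higher, 0.22 (SE 0.04), and the helicase gene glh-1 lower, -0.19 (SE 0.05). Germ line markers had 1 higher and 1 lower of 9. Of 28 germ cell RNA regulators, 8 were higher and 1 lower, and of 33 meiotic genes 9 were higher and 2 lower. The shares called, 32.1% and 33.3%, were near the 30.4% of all genes, and both medians were 0.05 on the log2 scale. The higher ones included daz-1 (0.33, SE 0.04), which meiotic germ cells of the ovary need, and prom-1 (0.32, SE 0.04), which promotes homologue pairing.

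The peptide and thermosensory lists held few calls, with 11.1% and 14.3% called against 30.4% of all genes. The insulin-like gene ins-7, made in the intestine and nervous system, had 0.555, 0.224 and 0.474 CPM in F3, against 2.23, 2.09 and 2.27 CPM in F0 and 0.960, 0.407 and 0.529 CPM in control, a log2 difference of -2.37 (SE 0.30, adjusted p 1.67e-05) by edgeR, and F3 overlapped control. The neuropeptide-like gene nlp-25 was higher, 1.95 (SE 0.41). Of 137 peptide genes, 108 were tested, 7 were higher (4 without F0 replicate 3) and 5 lower (1 to 3 without F3 replicate 2 or F0 replicate 1, 2 or 3). Of 22 thermosensory genes 14 were tested, with 1 higher and 1 lower. Genes under insulin signalling and oxidative stress control gave 6 higher and 4 lower (1 without F0 replicate 3) of 31 tested of 35, with gcs-1, for glutathione synthesis, at -0.20 (SE 0.04) and the ferritin gene ftn-2 at 0.19 (SE 0.04). The share called there, 32.3%, was near that of all genes. In the list of membrane lipid regulators, 2 of 18 were higher and 2 lower. The lower ones were sams-1 (-0.21, SE 0.05) and pmt-1 (-0.21, SE 0.06), enzymes on the path to phosphatidylcholine.

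Housekeeping lists differed in direction, and several were called about as often as all genes, of which 30.4% were called. The share called was 30.3% for proteasome, 30.95% for nuclear respiratory chain, 30.77% for mitochondrially encoded and 31.43% for muscle sarcomere genes. The number of calls therefore does not set these lists apart from other genes. Germ line cell cycle genes were called more often, at 47.2%, and ribosomal protein genes less often, at 1.27%. Of 33 proteasome subunit genes, all tested, 10 were higher and none lower, with a median log2 of 0.10. Omitting F3 replicate 1 raised this count to 28, and omitting F3 replicate 2, F3 replicate 3 or F0 replicate 3 lowered it to 6. The summed proteasome level was 6532, 7404 and 7280 CPM in F3 and 6613, 6538 and 6603 CPM in F0, so F3 library 1 lay below every F0 library. rpn-1 had 361, 374 and 368 CPM in F3, against 296, 284 and 306 CPM in F0 and 355, 347 and 359.8 CPM in control, a log2 difference of 0.32 (SE 0.04, adjusted p 9.39e-06) by edgeR. Germ line cell cycle genes were higher in 16 of 36, all tested, and lower in 1 (higher in 9 without F0 replicate 2 and 10 without F0 replicate 3), for example mcm-5 (0.22, SE 0.04), a replication helicase subunit, and ify-1 (0.23, SE 0.04), securin. Nuclear genes of the respiratory chain were lower in 11 and higher in 2 of 42, all tested, with a median log2 of -0.07. Among the lower was gas-1 (-0.43, SE 0.04), a complex I subunit gene. The cytochrome c gene cyc-2.2 (-3.46, SE 0.47) was scarce, with 3 to 12 counts per F3 library, 75 to 105 per F0 library and 1 to 15 per control library. The 11 were 6 without F3 replicate 1, F0 replicate 1 or F0 replicate 2 and 21 without F3 replicate 3. Of 13 mitochondrially encoded genes, 4 were lower and none higher, among them MTCE.26 (-0.40, SE 0.08) and MTCE.23 (COX3; -0.38, SE 0.12). Muscle sarcomere genes were lower in 10 (6 without F0 replicate 1 or 2) and higher in 1 of 35, such as the myosin light chain gene mlc-1 (-0.42, SE 0.05) and the attachment protein gene deb-1 (-0.40, SE 0.05). The 8 body muscle markers, which include mlc-1 and so are not separate from this list, summed to 1897 to 2323 CPM in F3 and 2264 to 2547 CPM in F0. Their part was not tested. None of 9 neuron markers was called by edgeR. Ribosomal protein genes had 1 lower of 79 tested of 80.

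A small set still differed from control in F3 in the direction of F0, and part of it had moved towards control. Of the 38 genes called between F3 and control, 23 were also called between F0 and control in the same direction, 18 higher and 5 lower. Between F3 and F0, 13 of these 23 were called and 10 were not. The F3 difference from control ran from 34.8% of that of F0 in bath-12 to 278% in R03D7.2 on the log2 scale. The F0 and F3 comparisons share the control libraries, and each gene's levels are therefore given side by side. M162.12, annotated as a pseudogene, had 4.18, 5.35 and 5.19 CPM in F3, against 9.67, 10.3 and 10 CPM in F0 and 1.28, 1.28 and 1.09 CPM in control. Its F3 level lay between F0 and control with no overlap, -1.03 (SE 0.14) from F0 and 2.0 (SE 0.18, adjusted p 1.68e-05) from control on the log2 scale by edgeR. R10F2.6 was likewise intermediate, at 7.79, 7.07 and 9.11 CPM in F3, against 17.1, 15.3 and 16.22 CPM in F0 and 4.82, 4.19 and 4.44 CPM in control, with differences of -1.02 (SE 0.10) from F0 and 0.84 (SE 0.11) from control. M04F3.3 (kin-35), at 0.73 (SE 0.11) from control and -0.90 (SE 0.10) from F0, and C14B9.2, at 0.31 (SE 0.05) and -0.41 (SE 0.05), had the same order of groups. The F3 difference from control was 66.1% of the F0 difference on the log2 scale in M162.12, 45% in R10F2.6, 44.7% in M04F3.3 and 43.3% in C14B9.2.

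Other genes of this set showed no measurable return. ZC204.14 had 5.54, 5.52 and 3.91 CPM in F3, against 5.50, 5.11 and 5.52 CPM in F0 and 1.90, 1.97 and 1.83 CPM in control: F3 and F0 overlapped and both stood clear of control. Its difference between F3 and F0 was -0.10 (SE 0.13), with a 95% interval of -0.37 to 0.17, and that between F3 and control was 1.40 (SE 0.15, adjusted p 8.75e-05) by edgeR. F30B5.4 (osgn-1) had 62.2, 76.5 and 69.9 CPM in F3, against 71.0, 69.3 and 72.1 CPM in F0 and 48.1, 47.0 and 48.2 CPM in control, with an interval of -0.14 to 0.09 between F3 and F0 and a difference of 0.54 (SE 0.06) from control. ceh-20, a homeobox gene that partners Hox proteins, had 22.1, 18.3 and 19 CPM in F3, against 19, 20.5 and 22.8 CPM in F0 and 12.7, 13.8 and 11.5 CPM in control, with an interval of -0.28 to 0.13 between F3 and F0 and 0.64 (SE 0.10) from control. The pseudogenes W06A11.4 (1.54, SE 0.17) and K06B9.4 (0.39, SE 0.06) were also higher than control and not called against F0. On the low side, the F-box gene fbxa-192 had 6.35, 6.77 and 5.64 CPM in F3, against 6.38, 7.25 and 5.99 CPM in F0 and 10.2, 11.3 and 11.1 CPM in control, with log2 differences of -0.80 (SE 0.11) from control and -0.06 (SE 0.11) from F0.

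In 5 of the 23 genes the fitted F3 difference from control exceeded that of F0, at 278% of it in R03D7.2, 169% in snt-2, 126% in W06A11.4, 108% in fbxa-192 and 101% in C18H2.2. Of these, snt-2 and R03D7.2 were called between F3 and F0. W06A11.4 had 5.83, 8.81 and 5.28 CPM in F3, against 5.32, 5.34 and 5.34 CPM in F0 and 2.24, 2.5 and 2.1 CPM in control, with F3 library 2 above the others. Its difference from F0, 0.32 (SE 0.15), was called in 2 of 6 fits that left out 1 library, those without F3 replicate 1 or 3 (log2 0.08 to 0.46 over the 6). The synaptotagmin gene snt-2 had 27.3, 27.4 and 22.4 CPM in F3, against 22.3, 21 and 20.6 CPM in F0 and 14.8, 17.5 and 16.205 CPM in control. F3 was above F0 by 0.27 (SE 0.09, adjusted p 0.0324) by edgeR and above control by 0.67 (SE 0.09), and the F3 to F0 call was lost in 4 of 6 fits that left out 1 library, those without F3 replicate 1 or 2 or F0 replicate 2 or 3 (log2 0.23 to 0.36 over the 6). R03D7.2 had 6.06, 4.23 and 5.31 CPM in F3, against 8.61, 7.80 and 7.59 CPM in F0 and 10.8, 9.71 and 10.1 CPM in control, with log2 differences of -0.62 (SE 0.11, adjusted p 4.98e-04) from F0 and -0.97 (SE 0.11) from control by edgeR. The calls against control of M162.12, ZC204.14, F30B5.4, W06A11.4, R03D7.2, R10F2.6, fbxa-192, snt-2, M04F3.3 and ceh-20 held in each of 6 fits that left out 1 F3 or control library. K06B9.4 and C14B9.2 lost theirs without F3 replicate 2 or control replicate 1, with log2 ranges of 0.36 to 0.45 and 0.28 to 0.36 over the 6 fits.

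The rest of the 23 lay closer to the threshold. bath-13, a MATH-domain gene, had 1.8, 1.38 and 1.95 CPM in F3, against 3.39, 3.51 and 4.96 CPM in F0 and 0.524, 0.869 and 0.669 CPM in control, with F3 between F0 and control and no overlap. Its log2 difference was -1.21 (SE 0.19) from F0 and 1.27 (SE 0.24) from control. bath-12 (0.46, SE 0.09 from control), F56D6.16, a pseudogene (1.37, SE 0.25), and W09C3.1 (0.76, SE 0.14) were intermediate too. The F-box gene fbxa-136 (1.91, SE 0.34), the pseudogene C18H2.2 (0.42, SE 0.07), K03D7.1 (0.34, SE 0.07) and the adhesion gene Y102A11A.8 (igcm-4; 0.62, SE 0.13) were higher than control and not called against F0. K03D7.1 had the same level, within 10% in every wild-type library, as the repeat copy Chapaev-1_CE_29, so the values of this gene and copy are not separate observations. On the low side, W09B7.2 and F07B7.2 had identical values, at 1.36, 1.2 and 1.39 CPM in F3, against 0.230, 0.424 and 0.248 CPM in F0 and 3.58, 3.10 and 2.15 CPM in control. Both names match the same current gene, F07B7.2, so they are not separate observations, though each is counted among the 23. F3 lay between F0 and control, with log2 differences of 2.11 (SE 0.30, adjusted p 4.90e-05) from F0 and -1.15 (SE 0.20) from control by edgeR. ZK856.16 stood at -0.55 (SE 0.11) from control. The calls against control of these 11 genes held in only 1 to 4 of 6 fits that left out 1 library, and each was lost without F3 replicate 1 or 2 or both, and without control replicate 1 or 2 or both. Of 386 pseudogenes tested, 5 were higher and 1 lower in F3 than in control, and of 13254 protein-coding genes 13 were higher and 10 lower.

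**Figure D4:**
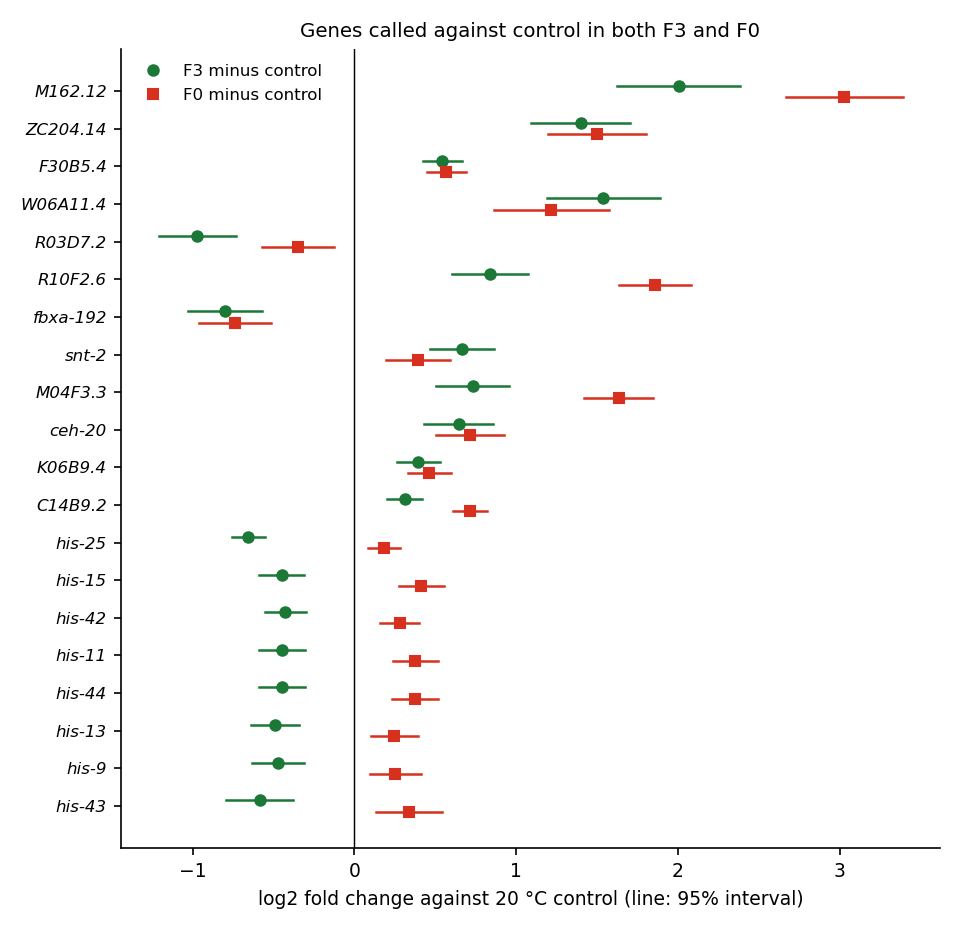
Log2 fold changes against control with 95% intervals for F3 (green circles) and F0 (red squares) of 12 genes called in both comparisons in the same direction (upper rows) and 8 called in opposite directions (lower rows). F30B5.4 and ZC204.14 have nearly equal values in F3 and F0, M162.12 and R10F2.6 are lower in F3 than in F0, and the 8 histone genes lie left of 0 in F3 and right of 0 in F0.

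A set of histone genes, higher than control in F0, lay below control in F3. All 8 genes called in opposite directions against control in F3 and F0 encode histones: his-9, his-13, his-25 and his-42 encode H3, his-11, his-15 and his-44 H2B, and his-43 H2A. Most histone transcripts of dividing cells lack a poly(A) tail, and the libraries were made without poly(A) selection. his-25 had 112.1, 116 and 132 CPM in F3, against 220.0, 215 and 208 CPM in F0 and 191, 189 and 186 CPM in control, a log2 difference of -0.84 (SE 0.05, adjusted p 1.30e-09) between F3 and F0 and of -0.66 (SE 0.05, adjusted p 9.72e-07) between F3 and control by edgeR. his-15 had 309, 314 and 370.1 CPM in F3, against 625, 561 and 621 CPM in F0 and 444, 427 and 486 CPM in control, -0.86 (SE 0.07) from F0 and -0.45 (SE 0.07) from control. his-42 stood at -0.70 (SE 0.06) and -0.43 (SE 0.06). For his-25 and his-42 the call against control held in 6 of 6 fits that left out 1 library. The calls of his-15, his-11, his-44, his-13 and his-9 were lost without F3 replicate 1 or 2, with log2 values between -0.57 and -0.38 over the 6 fits. That of his-43 was lost without F3 replicate 2 or control replicate 1 or 3, over a log2 range of -0.70 to -0.48. Near-equal counts tie his-11 to his-15 and his-44, and his-9 to his-13, so these are not separate observations.

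Other histone genes took other directions. Of 72 histone genes, 71 were tested, 24 were lower and 6 higher (17 without F3 replicate 1) in F3 than in F0, with a median log2 of -0.04. The higher ones were his-2 (0.53, SE 0.14), his-3 (0.32, SE 0.08), his-4 (0.27, SE 0.05), his-7 (0.34, SE 0.09), his-8 (0.29, SE 0.08) and his-38 (0.16, SE 0.06). his-4 had 141, 155 and 171 CPM in F3, against 124, 134 and 129.7 CPM in F0 and 180.4, 169.9 and 177 CPM in control, with F3 between F0 and control in the mean. The summed histone level differed widely among F3 libraries, at 23285, 26882 and 30024 CPM, against 28983 to 29503 CPM in F0 and 28658 to 29581 CPM in control. None of the 71 was higher in F3 than in control and 10 were lower. In F3 library 1, which holds the lowest sum, ribosomal protein RNA was lowest too, and the part of that library's composition in the histone differences was not tested.

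A further 7 genes were called between F3 and control and not between F0 and control. nhx-6, a sodium/proton exchanger gene, had 1.14, 0.816 and 0.877 CPM in F3, against 0.0588, 0.0298 and 0.0285 CPM in F0 and 0.178, 0.0841 and 0 CPM in control. F3 stood above all other libraries, by 4.46 (SE 0.57, adjusted p 1.51e-05) on the log2 scale against F0 and 3.44 (SE 0.50, adjusted p 0.0024) against control by edgeR, with 2, 1 and 1 counts in the F0 libraries. C55C3.7 had 0.522, 1.26 and 0.930 CPM in F3, against 0.0882, 0.0298 and 0.128 CPM in F0 and 0.142, 0.196 and 0.0623 CPM in control, 3.47 (SE 0.52) from F0 and 2.71 (SE 0.47) from control, and the call against control was lost when F3 replicate 2 or any control library was omitted. The other 5 were lower in F3 than in control: F42A9.6 (-0.73, SE 0.08), his-26 (-0.57, SE 0.07), his-10 (-0.54, SE 0.08), Y102A5C.36 (-0.76, SE 0.14) and the pseudogene ZK637.6 (-0.38, SE 0.08). his-26 and his-10 are a near-equal pair. Of these, F42A9.6 and his-26 kept the call in 6 of 6 fits that left out 1 library, his-10 lost it without F3 replicate 2 or control replicate 1, and Y102A5C.36 and ZK637.6 lost it without F3 replicate 1 or control replicate 1 or 2, among others. A difference between the F3 and F0 effects is what the F3 against F0 comparison tests, and all 7 were called there.

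In F3, 5 of 159 repeat families tested were called against control (3.14%), a larger share than the 0.263% of genes. Between F3 and F0 the share of families called was smaller than the 30.4% of genes. Reads of single repeat copies were summed by family. Of 159 families tested, 19 were called between F3 and F0 (11.9%), 13 higher (8.18%) and 6 lower (3.77%), and the groups did not overlap for 34 (21.4%). Between F0 and control 28 were called (17.6%). CER1, a retrovirus-like long terminal repeat element that is active in the germ line, had 357, 402 and 322 CPM in F3, against 139.5, 141 and 143 CPM in F0 and 345, 366 and 368 CPM in control. All F3 libraries were above all F0 libraries, by 1.35 (SE 0.06, adjusted p 1.22e-13) on the log2 scale by edgeR, and the F3 to control difference was 0.00 (SE 0.06) with a 95% interval of -0.12 to 0.13. Of its copies, 1 passed the filter on low counts. Other long terminal repeat families moved both ways: CER10-I_CE-int (0.80, SE 0.10), CER9-I_CE-int (1.121, SE 0.18) and CER8-I_CE-int (1.01, SE 0.17) were higher, and CER16-2-I_CE-int (-0.90, SE 0.08) and CER7-I_CE-int (-0.88, SE 0.15) lower. CER16-2-I_CE-int had 55.4, 47.1 and 65.2 CPM in F3, against 106, 98.8 and 108 CPM in F0 and 59.1, 58.4 and 58.8 CPM in control, and F3 spanned the control values. The DNA transposon Tc1, the element that jumps in mutator strains, was higher by 0.37 (SE 0.09), and the repeat CeRep53 by 1.41 (SE 0.16). The call of CER16-I_CE-int was lost in 1 of 6 fits that left out 1 library, the one without F3 replicate 3. Calls of CER16-LTR_CE, CER15-I_CE-int and CER3-I_CE-int were each lost without F3 replicate 3 and in 2 further such fits, and that of TC5 without F0 replicate 2.

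**Figure D5:**
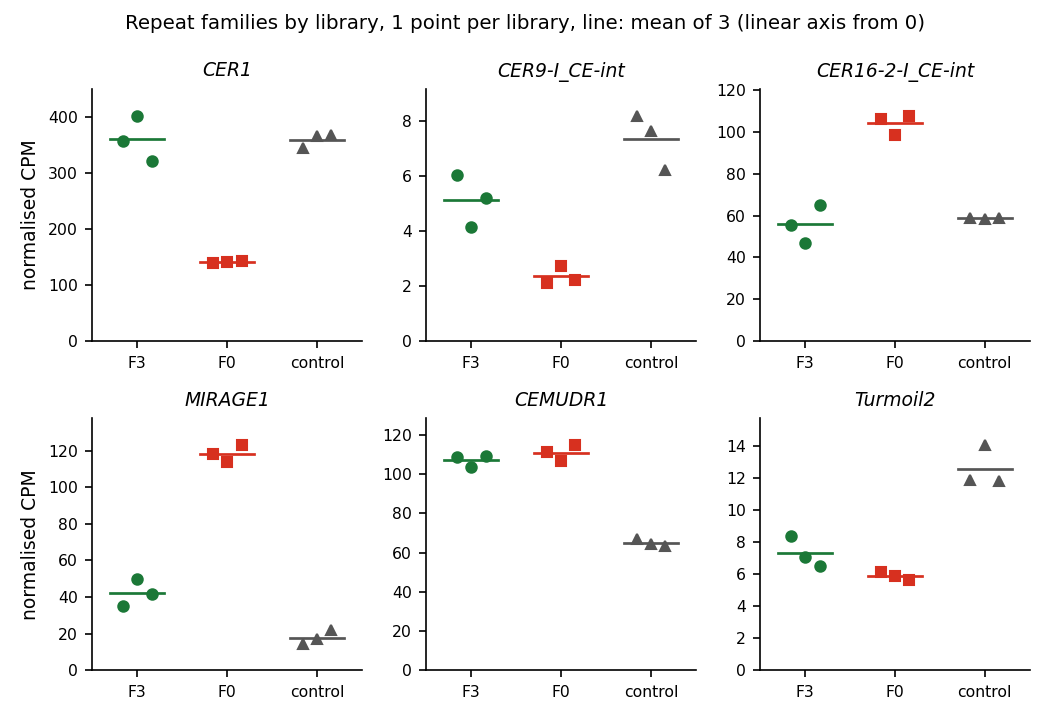
Summed levels of 6 repeat families by library in normalised CPM on linear axes from 0, with 1 point per library and a line at the mean of 3, in F3 (green), F0 (red) and control (grey). CER1 and CER16-2-I_CE-int stand near control in F3, MIRAGE1 lies between F0 and control, and CEMUDR1 stays at the F0 level.

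MIRAGE1, a DNA transposon family, lay between F0 and control. It had 35.2, 49.6 and 41.7 CPM in F3, against 118, 114 and 123 CPM in F0 and 14.5, 17.2 and 21.7 CPM in control, with no overlap among the groups. The log2 difference was -1.49 (SE 0.19, adjusted p 5.85e-04) between F3 and F0 and 1.24 (SE 0.21, adjusted p 0.00804) between F3 and control by edgeR, and 2.73 (SE 0.21) between F0 and control. Of 15 single copies tested, 9 were called between F3 and F0 and 11 between F3 and control. MIRAGE1_45 had 3.39, 5.6 and 4.09 CPM in F3, against 16.8, 16 and 17.5 CPM in F0 and 0.264, 0.198 and 0.295 CPM in control, a difference of -1.94 (SE 0.17, adjusted p 1.98e-06) from F0 and 4.16 (SE 0.31, adjusted p 5.66e-07) from control. With MIRAGE1_50, MIRAGE1_7, MIRAGE1_51, MIRAGE1_52 and MIRAGE1_8 it made a set whose levels ran from 3.16 to 6.04 CPM in F3, 14.7 to 18.7 CPM in F0 and 0.197 to 0.373 CPM in control. The copies hold fractional counts, as reads split among features give, so alike copies are not separate observations. MIRAGE1_44 ran against the family. It had 0.668, 0.456 and 0.789 CPM in F3, against 0.232, 0.246 and 0.241 CPM in F0 and 0.0356, 0 and 0 CPM in control, higher in F3 than in F0 by 1.39 (SE 0.30). MIRAGE1_62 was lower than control in F3, -0.51 (SE 0.12), and did not differ measurably between F3 and F0, 0.12 (SE 0.12).

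CEMUDR1, a Mutator-like DNA transposon family, stayed at the F0 level. It had 109, 103.9 and 109 CPM in F3, against 111.5, 107 and 115 CPM in F0 and 66.8, 64.2 and 63.2 CPM in control. F3 and F0 overlapped, with a log2 difference of -0.05 (SE 0.06, adjusted p 0.75) and a 95% interval of -0.18 to 0.07, and F3 exceeded control by 0.73 (SE 0.06, adjusted p 1.32e-08) by edgeR. Of 10 single copies tested, 6 were called between F3 and control and 1 between F3 and F0. That copy, CEMUDR1_331, ran against the family: it was higher in F3 than in F0, 0.55 (SE 0.14), and than in control, 0.64 (SE 0.14). Its F0 level was not called against control, 0.09 (SE 0.15). CEMUDR1_149 had 25.9, 25.4 and 26 CPM in F3, against 29.9, 29.6 and 31 CPM in F0 and 11.9, 11.3 and 11.3 CPM in control, 1.17 (SE 0.08) from control and -0.23 (SE 0.08) from F0. Chapaev-1_CE showed the same order at a smaller size, 0.20 (SE 0.05) from control and -0.04 (SE 0.05) from F0, and its copy Chapaev-1_CE_29 is the one with the levels of K03D7.1. On the low side, Turmoil2 had 8.39, 7.06 and 6.51 CPM in F3, against 6.11, 5.86 and 5.65 CPM in F0 and 11.9, 14 and 11.8 CPM in control, -0.78 (SE 0.13) from control and 0.32 (SE 0.14) from F0, and CER2-I_CE-int stood at -0.63 (SE 0.11) and -0.17 (SE 0.12). Together with MIRAGE1 these families make the 5 called between F3 and control (3.14%), 3 higher (1.89%) and 2 lower (1.26%). For 116 families (73%) the 95% interval of F3 lay within 1.5-fold of control, a margin that a family with a smaller lasting difference could also meet. At the level of single copies, 52 of 1146 tested were called between F3 and F0 (4.54%), 34 higher (2.97%) and 18 lower (1.57%), and 23 between F3 and control (2.01%). Leaving out a library lowered the 52 to 34 (F3 replicate 3 omitted), 31 (F0 replicate 1 omitted) or 28 (F0 replicate 3 omitted).

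The number of genes left different in F3 rested on single libraries. The 38 genes called between F3 and control (20 higher, 18 lower) became 25 higher and 79 lower when F3 replicate 3 was omitted, 24 or 20 in all when the first or second F3 replicate was, and 23 when control replicate 1 was. The counts between F3 and F0 were steadier, with 3450 to 4851 genes called over the 6 fits that left out 1 library.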

How the data were processed

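RNA of 12 libraries was measured, 6 of which (3 F3, 3 F0) form the comparison described here. The authors deposited expected counts per gene and per repeat copy in a table of 99761 features, and 22.4% of its values are not whole (tolerance 1e-06), as in counts that split a read among features; how reads matching several places were treated was not stated. Per the submitters' processing notes, TopHat2 2.1.0, featureCounts 1.5.1 and DESeq2 1.8.1 were used. A genome build was not given in these sources, and no coordinates are printed. Counts were rounded for all tests, since they had been assumed to be whole. CPM used them as deposited. Of 45836 gene features, 43526 matched the reference table of names, and 53925 repeat copies were summed into 179 families, of which 177 without ribosomal RNA were kept.

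Genes, families and copies were fitted separately with edgeR 4.0.16 in R 4.3.3 (quasi-likelihood test, robust dispersion, TMM scaling, filterByExpr by group, 1 mean per group, 12 libraries), with Benjamini-Hochberg adjustment over all features of a kind at 0.05. The script was tested on simulated data. Intervals are 95% from the same fit. Alternatives were DESeq2 1.42.0, RLE scaling, no filter, fewer libraries, a replicate block and leaving out each library.

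The members, the gene lists and the rule for named genes were chosen with earlier results of these data known. The rule named the 12 called genes with the largest fold change in each direction (gene-class name, no overlap between groups, mean count of at least 50), the 3 with the smallest p from each list with at least 3 calls, up to 12 genes not fully reset and 8 beyond control, 5 repeat families per direction, and set-25, met-2, wago-9 and hsf-1. Other genes named, such as irg-5, pept-1 and further list members, were picked after their values were seen.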

Additional observations from a re-analysis of the deposited data

How the results depend on the processing

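The count of genes called between F3 and F0 (4391) stayed within 1.5 times under every alternative run, from 3296 with the replicate block to 4851 without F3 replicate 1, as did the 19 repeat families (16 to 22). For single repeat copies the main count of 52 was 31 by DESeq2, 30 with no filter on low counts and 28 to 42 when each library was left out in turn. Between F3 and control, 20 genes were higher and 18 lower. These counts were 43 higher and 53 lower with no filter, 10 higher and 5 lower with the 6 libraries of those groups alone, and 9 higher and 14 lower with the replicate block. With the 9 wild-type libraries, without set-25, they were 15 higher and 12 lower of 14380 genes tested. Leaving out 1 library gave 12 to 25 higher and 8 to 79 lower. The causes were not tested. No direction was reversed among the 154 genes named between F3 and F0, the 38 called between F3 and control and the 23 repeat families for which directions were compared. Of the alternative values of genes named between F3 and F0, 1832 kept their side of the threshold, 13 lost and 3 gained a call, and of those between F3 and control 326 kept and 130 lost it. Labels give every group the same replicate numbers, but same-numbered F3 and F0 libraries deviated together little (r of 0.04, 0.08 and -0.05), so the numbers were not taken as pairs. With the block the F3 to F0 count was 3296, with 1244 genes higher and 2052 lower. Low counts limit the precision for sperm genes, and the spread among F3 libraries that for F3 against control.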
